A study of Homo sapiens with 12 samples.

Results

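The G2 and mitosis genes are 43 genes whose products carry a cell from the end of DNA replication through mitosis to the separation of the daughter cells. They were taken by gene symbol from the count table, with 1 row per symbol (the row with the highest summed count where a symbol had several), which gave 43 of the 23500 rows. All 43 passed the filter on low counts, a summed count of at least 10 over all libraries, and their summed counts ran from 4382 for CENPA to 124311 for TOP2A.

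The RNA was sequenced from HEK293T, a human embryonic kidney line that carries a viral large T antigen and depends on methionine for growth, and from R1, a clonal derivative of that line selected for growth in its absence. Both lines were grown for 12 h either in medium with methionine (+Met) or in medium that held homocysteine, from which cells make methionine, in its place (-Met+Hcy). Each of the 4 groups held 3 libraries, 12 in all. R1 is 1 clone, so a difference between R1 and HEK293T is a difference between a clone and its parental line. The labels give replicate numbers only and do not say whether replicates were separate cultures, so that p-values measure the spread between these libraries.

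Entry into mitosis is driven by the kinase CDK1 bound to its B-type and A-type cyclins. The kinases PLK1, AURKA and AURKB then build the spindle, the checkpoint proteins BUB1B, BUB3 and MAD2L1 hold back anaphase until every kinetochore is attached, and the anaphase promoting complex with its activator CDC20 marks cyclin B and securin (PTTG1) for destruction, which frees the protease separase (ESPL1) to part the sister chromatids. The mRNAs of these proteins accumulate late in the cell cycle under the transcription factor FOXM1 and the B-MYB-MuvB complex. In general they are kept low earlier by the DREAM complex, which binds the CHR element. Whether DREAM acts in these lines, given the large T antigen, was not tested. In bulk RNA, a change in the share of cells in G2 and mitosis and a change in these mRNAs per cell cannot be told apart.

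Library totals ran from 12664158 to 18771349 estimated counts, and the 43 genes took 6690 to 10493 CPM (the count of a gene scaled to the total of its library) together. Several libraries stood apart within their group. In R1 -Met+Hcy replicate 3 the deviation of a gene from the other 2 libraries of its group followed the GC content of its transcript, with a Spearman rho of -0.74 over 11043 genes and -0.73 over the 43 members. In R1 +Met replicate 2 the members' deviations followed transcript length (rho -0.54), and the same rho ran from -0.61 to 0.69 over the 12 libraries. The scaling also mattered. The 100 most abundant genes took 25.2% to 27.2% of the counts in HEK293T +Met and 18.7% to 21.5% in HEK293T -Met+Hcy, and the median log2 fold change of all genes between these groups was 0.03 after TMM scaling (trimmed mean of M-values, which divides by a library size that allows for such dominant genes) and 0.33 on column sums. Markers of the HEK293 line (VIM, KRT8, KRT18, NEFL, NEFM and PAX2) were detected in every library. Of 10 markers of other cell types, KRT5 and KRT14 were at 0 in every library, and the 10 together took at most 91.6 CPM, of which the fibroblast collagens COL1A1 (8.22 to 39.8 CPM) and COL3A1 (10.1 to 47.6 CPM) held the most. Their sum was at most 27.2 CPM in HEK293T +Met, 33.5 to 57.2 CPM in HEK293T -Met+Hcy and 48.0 to 72.8 CPM in R1 +Met. In R1 -Met+Hcy it ran from 23.2 to 91.6 CPM and overlapped every other group. The part of this sum in the results was not tested.

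**Figure D1:**
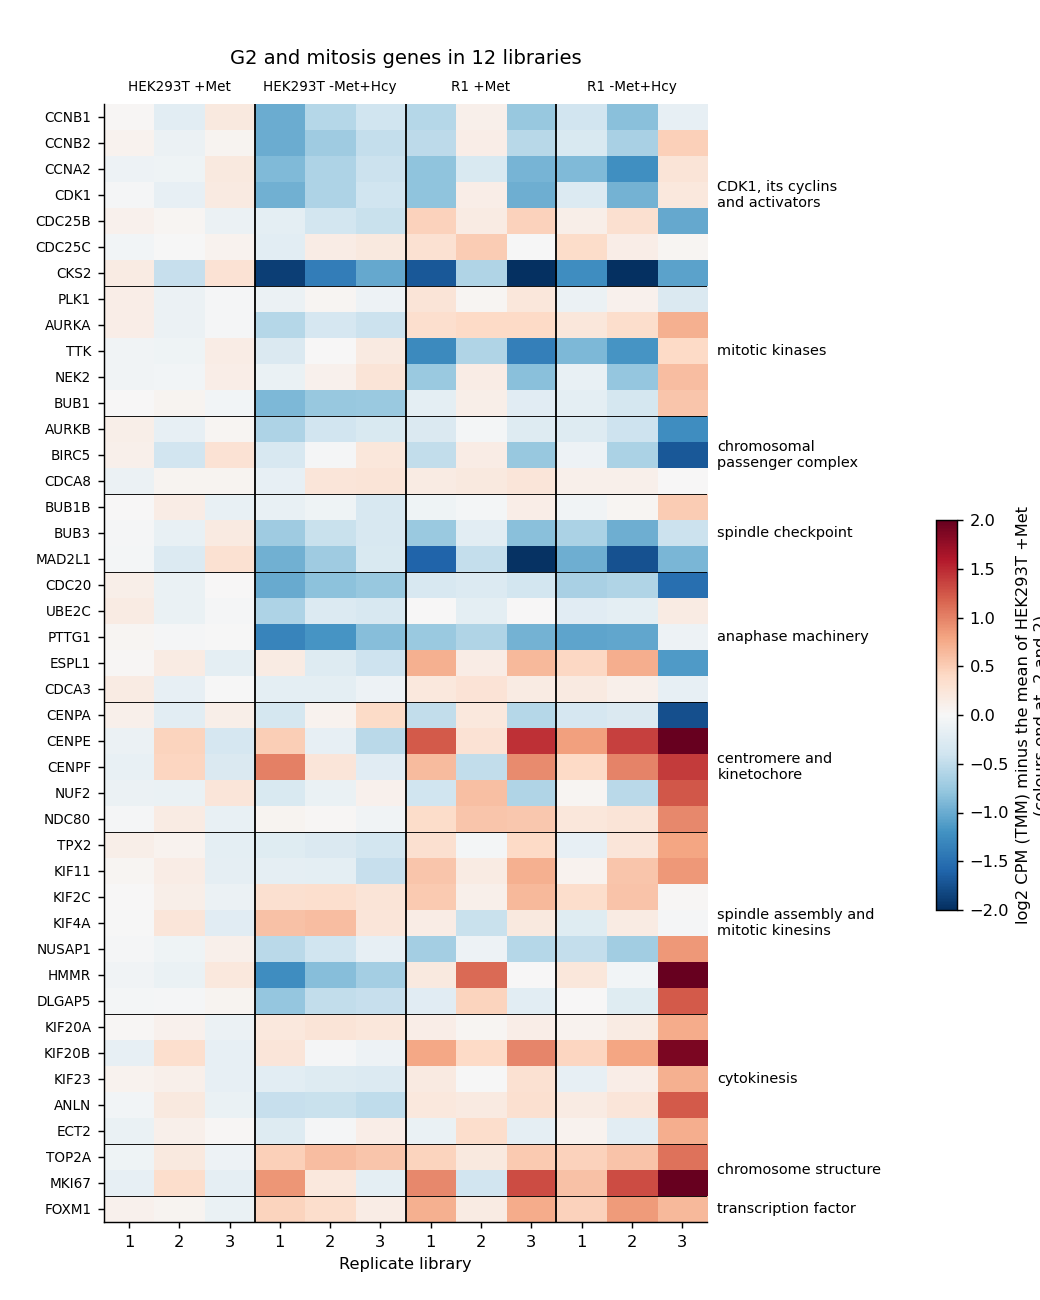
Level of the 43 genes (rows, grouped by role) in the 12 libraries (columns), as log2 CPM on TMM library sizes minus the mean of the 3 HEK293T +Met libraries of the same gene; the colours end at -2 and 2. CKS2, PTTG1, CDC20 and BUB1 are blue in the 3 HEK293T -Met+Hcy libraries, and R1 -Met+Hcy replicate 3 differs from the other 2 libraries of its group in most rows.

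Promoter motifs, which were not used to choose the members, were more frequent among them than among all genes. RefSeq promoter windows (250 bases before to 50 after a transcription start, GRCh38.p14) were matched for 36 of the 43 genes and gave 46 promoters. The CHR core TTTGAA was present on either strand in 29 of the 46 windows (63.0%), against 15.2% of all 35116 windows of the same length, and the CCAAT box, the site of the factor NF-Y, in 35 of the 46 (76.1%), against 34.6%. Both were present in 52.2% of the members' windows and in 5.9% of all windows. The 250 bases before the start are shown for CDC20 and PTTG1, which were called lower in HEK293T, and for CKS2 and TOP2A, which had the lowest and the highest log2 fold change there. The capitals mark both motifs on either strand, and each sequence runs in the direction of transcription, at chr1:43358731-43358980 (plus strand, CDC20), chr5:160421605-160421854 (plus strand, PTTG1), chr9:89310945-89311194 (plus strand, CKS2) and chr17:40417897-40418146 (minus strand, TOP2A).

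CDC20: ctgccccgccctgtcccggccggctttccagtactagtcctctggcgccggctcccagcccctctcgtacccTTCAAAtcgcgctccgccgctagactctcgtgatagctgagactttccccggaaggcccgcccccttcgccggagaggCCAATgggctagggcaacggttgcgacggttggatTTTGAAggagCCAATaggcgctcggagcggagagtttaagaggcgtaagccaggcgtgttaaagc
PTTG1: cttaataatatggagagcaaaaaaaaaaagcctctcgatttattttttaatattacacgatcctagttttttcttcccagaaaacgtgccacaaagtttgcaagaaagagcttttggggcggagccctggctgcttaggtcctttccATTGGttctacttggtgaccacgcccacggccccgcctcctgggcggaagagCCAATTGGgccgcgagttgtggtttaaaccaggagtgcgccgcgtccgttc
CKS2: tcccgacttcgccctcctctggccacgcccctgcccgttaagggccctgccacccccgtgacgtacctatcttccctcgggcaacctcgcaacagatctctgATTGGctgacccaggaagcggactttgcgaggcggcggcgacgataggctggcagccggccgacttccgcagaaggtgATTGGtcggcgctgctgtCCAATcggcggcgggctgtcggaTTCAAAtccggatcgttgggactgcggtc
TOP2A: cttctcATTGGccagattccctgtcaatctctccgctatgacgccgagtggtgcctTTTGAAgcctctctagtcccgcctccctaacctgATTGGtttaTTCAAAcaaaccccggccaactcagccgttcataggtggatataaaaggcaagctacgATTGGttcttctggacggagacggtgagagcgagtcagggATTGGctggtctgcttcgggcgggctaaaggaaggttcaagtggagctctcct

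In CDC20 the TTTGAA nearest the start began at -65 and the CCAAT box at -55, and in CKS2 the motif, on the other strand, began at -29, close behind CCAAT boxes at -70 and -52. The PTTG1 window held 3 CCAAT boxes, of which those at -51 and -48 overlap on opposite strands, and no TTTGAA, and TOP2A held 4 CCAAT boxes with TTTGAA copies at -194 and -151. The 26 members with TTTGAA in a window had log2 fold changes in HEK293T from -1.42 to 0.55 with a median of -0.16, and the 10 matched members without it from -1.10 to 0.30 with a median of -0.39. The ranges overlapped widely, and the letters did not separate the genes that were low in -Met+Hcy from those that were high.

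The first comparison asked how HEK293T cells, which depend on methionine, respond to its replacement. Securin, PTTG1, fell by 1.10 on the log2 scale in -Met+Hcy and CDC20 by 0.86, and these were the 2 members called, with the edgeR quasi-likelihood test over all 12 libraries and a Benjamini-Hochberg adjusted p under 0.05 over all 17162 genes tested. The share of all genes called lower was 2.78%. Of the 43 members, 0 were called higher by edgeR, against 4.25% of all genes, with 2 members positive and 9 negative at an unadjusted p under 0.05 (12.9% and 9.49% of all genes). DESeq2, the alternative test, called 0 higher, against 7.52% of all genes, and 4 lower (PTTG1, CDC20, BUB1 and CKS2), against 5.52%. Over the list, 12 log2 fold changes were positive and 31 negative, and the median was -0.18, against 0.03 for all genes tested. On column sums 24 were positive and 19 negative and the median was 0.11, against 0.33 for all genes, so that the members' median lay 0.22 below that of all genes under either scaling and the sign against zero depended on it.

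PTTG1 was counted at 122, 124 and 119 CPM in +Met and at 62.5, 66.2 and 79.4 CPM in -Met+Hcy. The groups did not overlap, and the log2 fold change was -1.10 ± 0.25 (SE), with an edgeR adjusted p of 0.024. CDC20 stood at 326, 292 and 305 CPM in +Met and at 197, 215 and 213 CPM in -Met+Hcy, again without overlap, with a log2 fold change of -0.86 ± 0.22 (SE) and an edgeR adjusted p of 0.0383. Both products act at the same step, since CDC20 directs the destruction of securin. Leaving out any 1 of the 6 HEK293T libraries kept both directions but took both genes past the threshold, with edgeR adjusted p from 0.0553 to 0.112 for PTTG1 and from 0.0786 to 0.146 for CDC20. CDC20 was also lost without R1 +Met replicate 1 (edgeR adjusted p = 0.0653) or R1 +Met replicate 3 (0.0569), which share the estimate of the spread, and on column sums (0.168). The other genes listed with them were not called with edgeR on all libraries. Their log2 fold changes were -0.40 for UBE2C (the ubiquitin-conjugating enzyme of the anaphase promoting complex), -0.17 for CDCA3 and -0.16 for ESPL1.

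CDK1 with its cyclins and activators had a median log2 fold change of -0.64, with 6 of 7 genes negative and 0 called. CKS2, a small CDK-binding subunit, had the lowest value of the 43 genes, -1.42 ± 0.43 (SE). It was counted at 367, 253 and 400.2 CPM in +Met and at 115, 157 and 193 CPM in -Met+Hcy. These groups did not overlap, but the edgeR adjusted p was 0.0718. CCNB1, cyclin B1, was counted at 519, 471 and 589 CPM in +Met and at 337, 434 and 466 CPM in -Met+Hcy, with a log2 fold change of -0.64 ± 0.26 (SE) and an edgeR adjusted p of 0.172. For CDK1 the values were 277, 267 and 321 CPM against 189, 229 and 255 CPM, with a log2 fold change of -0.65 ± 0.33 (SE) and an edgeR adjusted p of 0.271. Cyclin B2 (CCNB2, -0.71) and cyclin A2 (CCNA2, -0.63) lay beside them, whereas the phosphatases that activate CDK1 were at -0.33 (CDC25B) and 0.06 (CDC25C). CCNB1, CCNB2, CCNA2, CDK1 and CKS2 were each lower in all 3 -Met+Hcy libraries than in all 3 +Met libraries.

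The mitotic kinases spread from -0.79 to 0.07. BUB1, a kinase of the spindle checkpoint, was counted at 189.7, 208 and 183 CPM in +Met and at 134, 141 and 136 CPM in -Met+Hcy without overlap, with a log2 fold change of -0.79 ± 0.23 (SE) and an edgeR adjusted p of 0.0564. AURKA, the centrosomal Aurora kinase, was at 92.6, 83.6 and 84.1 CPM against 74.9, 84.3 and 75.0 CPM. Its groups overlapped, and the log2 fold change was -0.45 ± 0.17 (SE; edgeR adjusted p = 0.144). PLK1 was counted at 242, 217 and 219 CPM in +Met and at 267, 284 and 246 CPM in -Met+Hcy, higher in CPM in all 3 libraries, while its log2 fold change was -0.06 after TMM scaling (edgeR adjusted p = 0.859) and 0.23 on column sums. The spindle checkpoint proteins BUB1B, BUB3 and MAD2L1 had values from -0.66 to -0.18, and the chromosomal passenger complex from -0.44 for AURKB to 0.12 for CDCA8.

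Among spindle genes HMMR, a microtubule-associated protein of the spindle poles, was low. It was counted at 124, 127 and 152 CPM in +Met and at 72.3, 90.7 and 97.5 CPM in -Met+Hcy, without overlap, with a log2 fold change of -0.92 ± 0.48 (SE) and an edgeR adjusted p of 0.28. At the other end stood KIF4A, a chromosome-bound kinesin, at 54.8, 69.0 and 47.1 CPM against 108, 106 and 77.9 CPM, with a log2 fold change of 0.48 ± 0.22 (SE) and an edgeR adjusted p of 0.221. TOP2A, the topoisomerase that untangles sister chromatids, had the highest value of the list. It was counted at 369, 479 and 366 CPM in +Met and at 713, 760.0 and 695 CPM in -Met+Hcy. The groups were far apart in CPM, and the log2 fold change was 0.55 ± 0.20 (SE) with TMM scaling (edgeR adjusted p = 0.126) and 0.84 on column sums, where it was called (0.012).

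FOXM1, the transcription factor that activates many of the other members, was counted at 138, 143 and 119 CPM in +Met and at 233, 209 and 173 CPM in -Met+Hcy, with a log2 fold change of 0.32 ± 0.19 (SE) and an edgeR adjusted p of 0.356. The groups did not overlap in CPM. MKI67, the surface protein of mitotic chromosomes, ranged from 132 to 200.4 CPM in +Met and from 155 to 358 CPM in -Met+Hcy, and CENPF, a kinetochore protein, from 129 to 223 CPM and from 160.2 to 409 CPM. Both groups overlapped for both genes, and HEK293T -Met+Hcy replicate 1 was the highest library in each case. Their transcripts are among the longest of the list, and the deviation of that library from its group rose with transcript length over the members (rho 0.59). The part of transcript length in these 2 values was not tested.

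Counted by library, 10 members were lower in all 3 -Met+Hcy libraries than in any +Met library, against 9.8% of all genes, and 9 members were higher, against 38.6% of all genes. The 10 were CCNB1, CCNB2, CCNA2, CDK1, CKS2, BUB1, CDC20, PTTG1, HMMR and DLGAP5 (a spindle protein phosphorylated by Aurora A). The 9 were CDC25C, PLK1, NEK2, CDCA8, KIF2C, KIF4A, KIF20A, TOP2A and FOXM1. These values are in CPM on column sums, on which the median of all genes was 0.33.

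**Figure D2:**
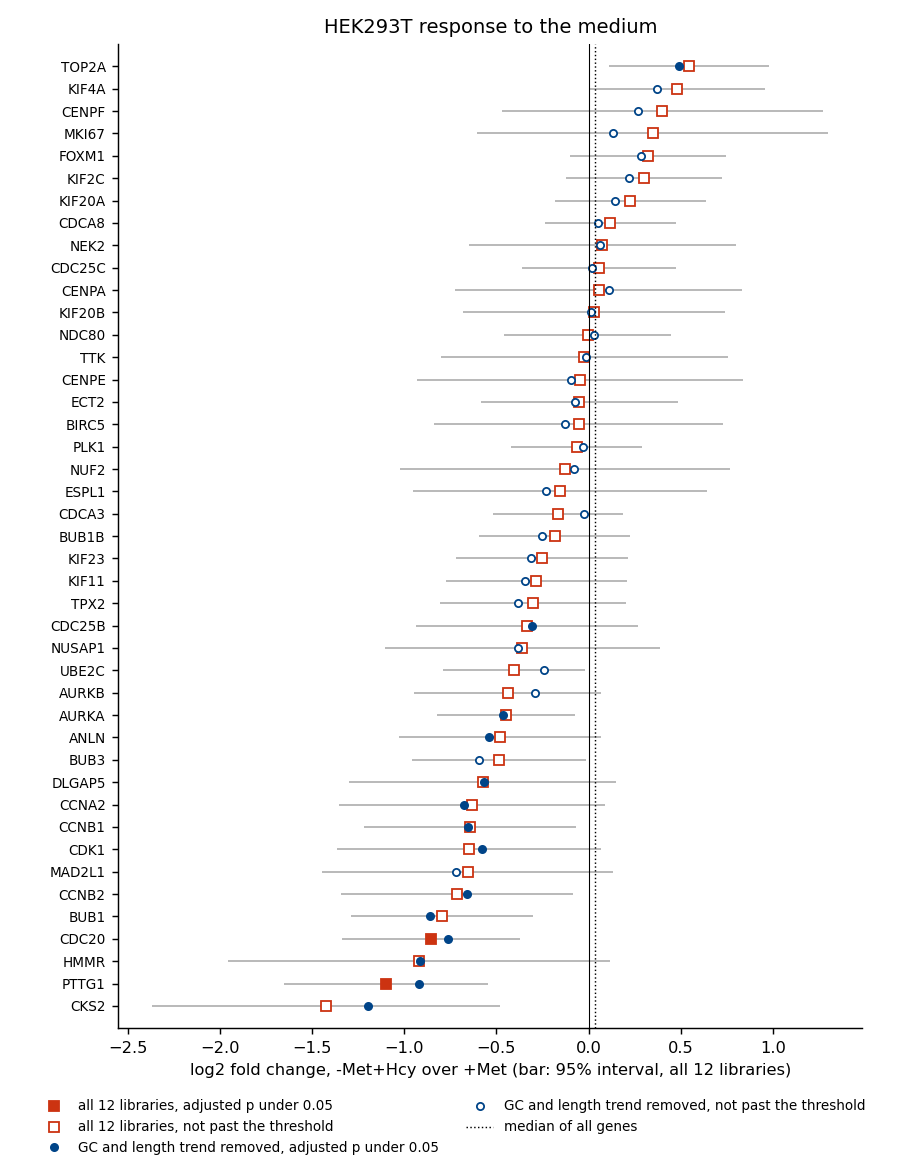
log2 fold change of the 43 genes in HEK293T, -Met+Hcy over +Met (horizontal axis); squares are the edgeR fit of all 12 libraries with its 95% interval (grey bar), circles the fit with the GC and length trend of each library removed, and filled symbols have an adjusted p under 0.05. The dotted line is the median of all genes; 2 squares (CDC20 and PTTG1) and 14 circles are filled.

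More members passed the test once 1 library of the other line was left out or the library trends were removed. Without R1 -Met+Hcy replicate 3, which lies in neither HEK293T group but widens the shared estimate of the spread (common dispersion 0.109 with it and 0.035 without), edgeR called 12 members lower, against 12.5% of all genes, and 1 higher, TOP2A, against 15.2% of all genes. The 12 were CKS2, PTTG1, HMMR, CDC20, BUB1, CCNB2, CCNA2, DLGAP5, ANLN, AURKA, AURKB and UBE2C. A further fit, added with the data known, took out the trend of each library with length and GC content of the transcripts, and 13 members were then called lower, against 9.23% of all genes, and TOP2A higher, against 9.66%. Under that fit 6 of the 7 genes of CDK1 and its activators were lower, CDK1 by 0.58 (edgeR adjusted p = 0.00485) and CCNB1 by 0.66 (0.00725), together with BUB1, AURKA, CDC20, PTTG1, HMMR, DLGAP5 and ANLN. The log2 fold changes themselves changed little, since CKS2 stood at -1.20 and PTTG1 at -0.92. Both fits left PLK1, FOXM1, MKI67 and all 5 centromere and kinetochore genes uncalled.

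**Figure D3:**
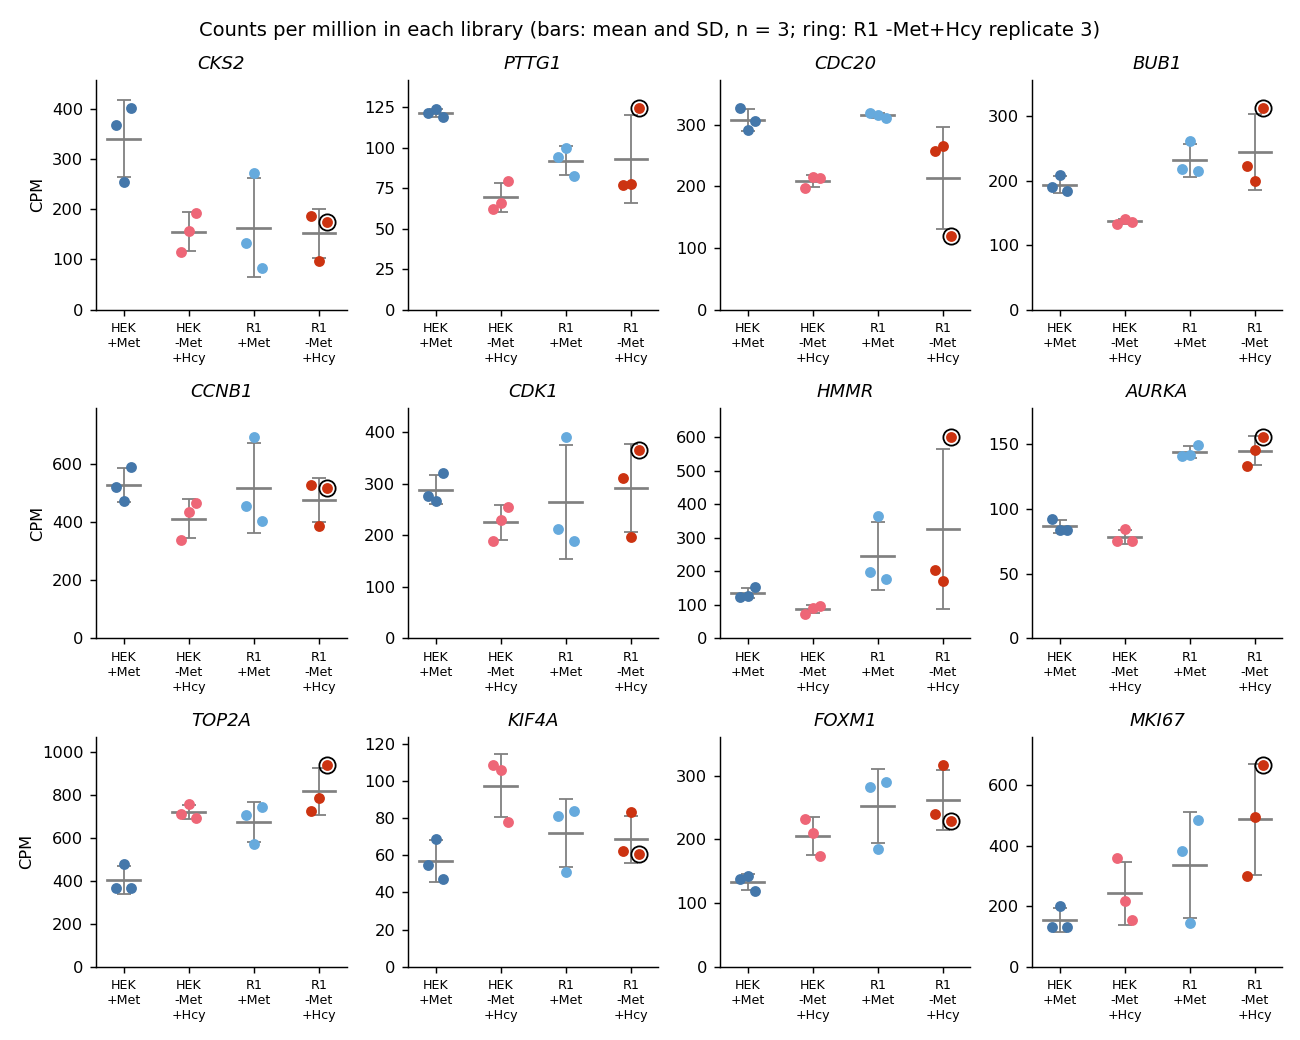
CPM of 12 of the 43 genes in each library (points), with the mean and SD of each group (grey bars, n = 3) and a ring around R1 -Met+Hcy replicate 3. CKS2, PTTG1, CDC20 and BUB1 do not overlap between the HEK293T media; in R1 the media overlap in every panel but CDC20, and the ringed library is the highest of the 12 for BUB1, HMMR, TOP2A, MKI67 and AURKA and the lowest for CDC20.

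The same replacement in R1 cells, which proliferate without methionine, gave no call among the members. With edgeR 0 members were called higher, against 0.00583% of all genes, and 0 lower, against 0%, with 0 positive and 1 negative (CDC20) at an unadjusted p under 0.05 (5.68% and 2.11% of all genes). DESeq2 called 0 members in either direction, against 0.192% of all genes higher and 0.0408% lower. The direction depended on 1 library. With all libraries 27 members were positive and 16 negative with a median of 0.09 (all genes -0.02), and without R1 -Met+Hcy replicate 3, 9 were positive and 34 negative with a median of -0.11 (all genes 0.00). Without that library edgeR again called 0 members higher, against 0.0176% of all genes, and 0 lower, against 0%. In the same way the summed level of the 43 genes was 8156, 8569 and 8313 CPM in R1 +Met and 8044, 8139 and 10493 CPM in R1 -Met+Hcy, the last value being replicate 3. The mean of the first 2 libraries was 8091 CPM.

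CDC20 was counted at 319, 316 and 310.4 CPM in R1 +Met and at 257, 266 and 119 CPM in R1 -Met+Hcy. It was the 1 member whose media did not overlap downwards, against 4.87% of all genes, while 0 members lay higher without overlap, against 5.22% of all genes. Its log2 fold change was -0.55 ± 0.22 (SE; edgeR adjusted p = 0.622), and -0.31 without replicate 3. The other low values were those of the phosphatase CDC25B (-0.45) and the centromeric histone CENPA (-0.41), which were 113, 132 and 42.99 CPM and 23.2, 24.2 and 7.245 CPM in the 3 R1 -Met+Hcy libraries. In both genes replicate 3 lay far below the other 2, which lay within the range of R1 +Met (110.0 to 143 CPM and 19.4 to 31.8 CPM).

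The highest values were those of the checkpoint kinase TTK (0.65 ± 0.36, SE), MKI67 (0.62 ± 0.44, SE) and the kinetochore motor CENPE (0.53 ± 0.41, SE). TTK was counted at 88.9, 135 and 84.1 CPM in R1 +Met and at 116, 96.5 and 239 CPM in R1 -Met+Hcy, and its log2 fold change without replicate 3 was 0.00. MKI67 was at 381, 144 and 486 CPM against 299, 496 and 665 CPM, and CENPE at 205, 103 and 243 CPM against 158, 231 and 357 CPM. In both genes R1 +Met replicate 2 was the lowest and R1 -Met+Hcy replicate 3 the highest of the 6 libraries, and without the latter library the log2 fold changes were 0.21 and 0.05. For the genes that were low in HEK293T, R1 gave -0.05 ± 0.43 for CKS2, 0.09 ± 0.25 for PTTG1, 0.15 ± 0.23 for BUB1, -0.07 ± 0.26 for CCNB1 and 0.20 ± 0.33 for CDK1 (log2 fold change and SE). CCNB1 was counted at 456, 693 and 404 CPM in R1 +Met and at 526, 388 and 516 CPM in R1 -Met+Hcy. CDK1 stood at 212, 391 and 189 CPM against 311, 197 and 365 CPM. In both genes the highest library was R1 +Met replicate 2, and the media overlapped throughout.

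PLK1 had a log2 fold change of -0.27 in R1, from 348, 287 and 344 CPM in +Met and 274, 317 and 203 CPM in -Met+Hcy. TOP2A had 0.34, from 708, 571 and 747 CPM and 726, 789 and 939 CPM, and FOXM1 0.09, from 283, 185 and 289 CPM and 241, 316 and 228 CPM. All 3 genes overlapped between the media. PTTG1 was at 94.1, 99.7 and 82.4 CPM in +Met and at 77.0, 78.0 and 124 CPM in -Met+Hcy, where replicate 3 alone lay above the +Met libraries. AURKA had a log2 fold change of 0.06. AURKA overlapped between the media, with 141, 142 and 149 CPM in +Met and 133, 146 and 156 CPM in -Met+Hcy.

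**Figure D4:**
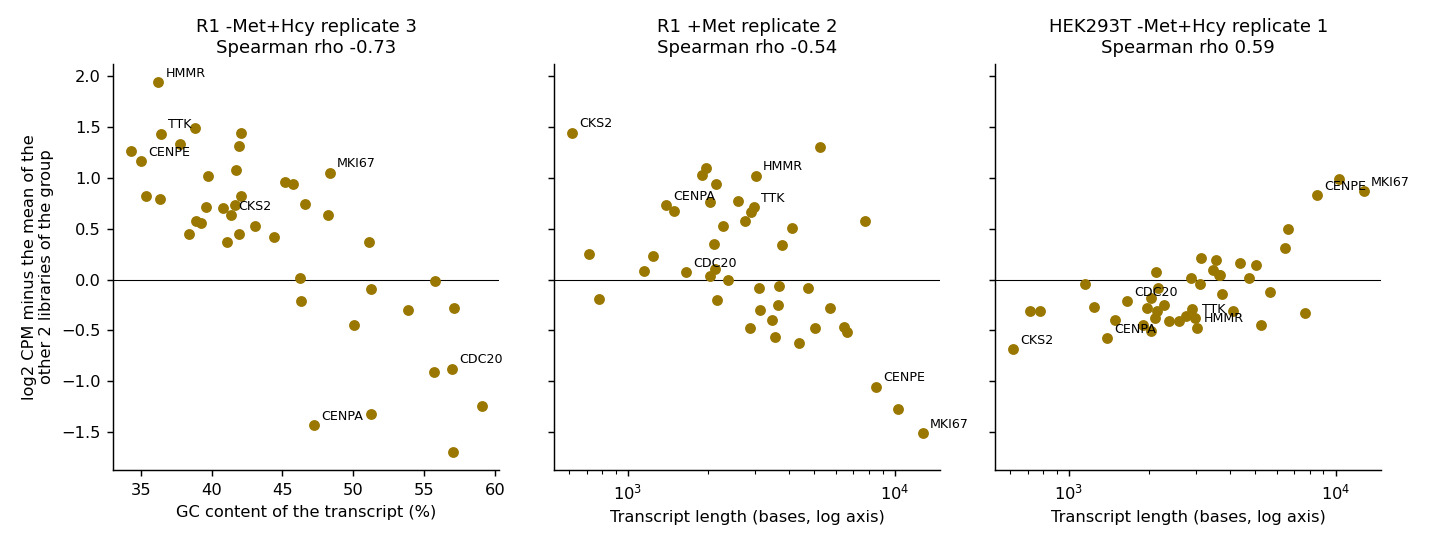
Deviation of 3 single libraries from the mean of the other 2 libraries of their group (log2 CPM, vertical axis) for the 43 genes, against GC content (left) or transcript length (middle and right, log axis). In R1 -Met+Hcy replicate 3 genes with little GC such as HMMR, TTK and CENPE lie high and CENPA and CDC20 low (rho -0.73), in R1 +Met replicate 2 the long MKI67 and CENPE lie low (rho -0.54), and in HEK293T -Met+Hcy replicate 1 they lie high (rho 0.59).

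The R1 values followed the same properties. Over the 43 members the R1 log2 fold change had a Spearman rho of -0.69 with GC content, and 0.12 without R1 -Met+Hcy replicate 3. The members' transcripts had a median GC content of 42.1%, against 47.5% for the 11043 genes used for the trends, and a median length of 2881 bases, against 3468. Without that library the order of the members in R1 resembled that in HEK293T, with a rho of 0.76 over 43 genes (0.60 over 11043 genes), whereas with it the rho was 0.11 (0.32 over 11043 genes). The 2 responses share no library, but their values share transcript length and GC content. With those trends removed as well and the library left out, the rho was 0.72 (0.59 over 11043 genes). With the trends removed and all libraries kept it was 0.42 (0.35 over 11043 genes). With the trends kept, 34 of 43 members had the same sign in both lines without the library, 28 of them negative, and 18 had it with all libraries. Without the library 36 were smaller in size in R1, where the SD of the members was 0.14 against 0.44 in HEK293T. The share of all genes with the same sign was not counted.

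**Figure D5:**
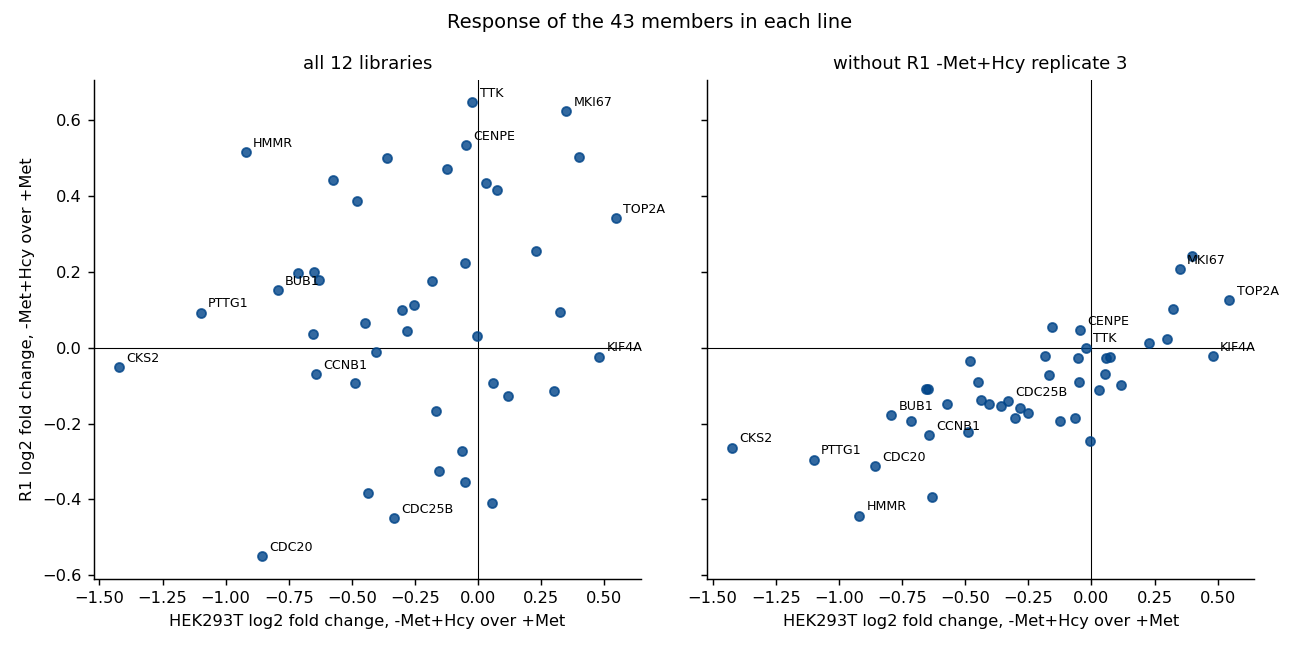
R1 log2 fold change of the 43 genes (vertical axis) against the HEK293T log2 fold change (horizontal axis), -Met+Hcy over +Met, with all libraries (left) and without R1 -Met+Hcy replicate 3 (right). On the left 27 genes lie above zero in R1; on the right 34 lie below zero, with CKS2, PTTG1, CDC20 and HMMR low in both lines and the R1 values closer to zero.

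Whether the lines differ in their response was tested directly as the R1 log2 fold change minus that of HEK293T. With edgeR 0 members were called higher in R1, against 0% of all genes, and 0 lower, against 0.0583%, with 5 positive and 0 negative at an unadjusted p under 0.05 (4.62% and 5.05% of all genes). DESeq2 called 0 members, against 0.524% of all genes higher and 0.903% lower. Without R1 -Met+Hcy replicate 3 the edgeR counts were again 0, against 0.398% of all genes higher and 1.28% lower. The median difference was 0.36 (all genes -0.06), 0.12 without that library and 0.01 on column sums (all genes -0.38). The largest differences were those of HMMR (1.44, 95% interval -0.02 to 2.89), CKS2 (1.37, 0.05 to 2.69) and PTTG1 (1.19, 0.42 to 1.97). For PTTG1 the edgeR adjusted p was 0.332, and the difference was 0.80 without replicate 3. For HMMR it dropped to 0.48 without that library, in which HMMR was counted at 601 CPM against 205 and 171 CPM in the other 2. The lowest differences were those of KIF4A (-0.50), CENPA (-0.46) and the microtubule-destabilising kinesin KIF2C (-0.41), and KIF2C was counted at 58.6, 67.4 and 54.0 CPM in HEK293T +Met, at 95.4, 92.3 and 84.0 CPM in HEK293T -Met+Hcy, at 111, 79.7 and 122 CPM in R1 +Met and at 100.6, 117 and 66.4 CPM in R1 -Met+Hcy.

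Under the fit with GC and length trends removed, BUB1 was called, with a difference of 0.78 (edgeR adjusted p = 0.0482). This was 1 member higher, against 0.74% of all genes, and 0 lower, against 0.903%. With R1 -Met+Hcy replicate 3 left out as well, 5 members were called higher, against 4.17% of all genes, and 0 lower, against 4.58%. They were CKS2, DLGAP5, BUB1, CDK1 and CDC20, with differences from 0.43 (DLGAP5) to 0.99 (CKS2) and edgeR adjusted p from 0.0101 to 0.047. Both are alternatives chosen after the data had been seen. PLK1, AURKA, FOXM1, TOP2A and MKI67 were called under neither.

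The lines were also compared within each medium. In +Met, 0 members were called higher in R1 with edgeR, against 5.69% of all genes, and 0 lower, against 4.48%, with 6 positive and 5 negative at an unadjusted p under 0.05 (13.6% and 12.5% of all genes). DESeq2 called 1 higher (FOXM1), against 8.85% of all genes, and 4 lower (CKS2, MAD2L1, TTK and PTTG1), against 7.95%. The members' median was 0.04 (all genes 0.02). CKS2 had the lowest value, -1.41 ± 0.43 (SE; edgeR adjusted p = 0.0595), from 367, 253 and 400.2 CPM in HEK293T and 133, 273 and 82.6 CPM in R1. The checkpoint protein MAD2L1 followed with -1.22 ± 0.37 (SE; edgeR adjusted p = 0.0549), at 300.1, 273 and 384 CPM against 135, 281 and 104 CPM, and TTK with -1.04 ± 0.36 (SE; edgeR adjusted p = 0.0904), at 155, 164 and 181 CPM against 88.9, 135 and 84.1 CPM. For CKS2 and MAD2L1, R1 replicate 2 lay within the range of HEK293T and the other 2 R1 libraries below it, and for TTK the lines did not overlap.

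On the high side of the +Met comparison stood CENPE (1.03), MKI67 (0.76) and KIF20B, a kinesin of cytokinesis (0.71). KIF20B was counted at 60.1, 91.4 and 60.5 CPM in HEK293T and at 152, 114 and 177 CPM in R1, without overlap. FOXM1, at 283, 185 and 289 CPM in R1 against 119 to 143 CPM in HEK293T, had 0.56 ± 0.20 (SE; edgeR adjusted p = 0.0901). Without R1 -Met+Hcy replicate 3, which is in neither group, edgeR called 6 members higher in R1 (CENPE, KIF20B, FOXM1, NDC80, KIF2C and AURKA), against 17% of all genes, and 6 lower (CKS2, MAD2L1, TTK, PTTG1, CCNA2 and BUB3), against 15.7%. These shares, 14% each, were near those of all genes.

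In -Met+Hcy, 7 members were called higher in R1 than in HEK293T, against 7.2% of all genes, and 0 lower, against 6.76%, and the median was 0.33 (all genes -0.01), or 0.17 without R1 -Met+Hcy replicate 3. They belong to spindle assembly, the kinetochore, cytokinesis and the mitotic kinases. HMMR was highest, at 72.3, 90.7 and 97.5 CPM in HEK293T and 205, 171 and 601 CPM in R1, with a log2 fold change of 1.96 ± 0.49 (SE; edgeR adjusted p = 0.0197). CENPE was counted at 122, 74.9 and 54.8 CPM in HEK293T and at 158, 231 and 357 CPM in R1 (1.61 ± 0.42, SE; edgeR adjusted p = 0.0232). KIF20B stood at 105, 83.8 and 75.7 CPM against 123, 158 and 279 CPM (1.12 ± 0.33, SE; edgeR adjusted p = 0.041). In these 3 genes R1 replicate 3 was the highest library.

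ANLN, anillin, which scaffolds the cleavage furrow, was counted at 118, 114 and 105 CPM in HEK293T and at 187, 199.7 and 326 CPM in R1 (1.10 ± 0.25, SE; edgeR adjusted p = 0.0134). AURKA was the steadiest of the 7, at 74.9, 84.3 and 75.0 CPM against 133, 146 and 156 CPM, with a log2 fold change of 0.89 ± 0.17 (SE; edgeR adjusted p = 0.00544) and 0.73 without replicate 3. BUB1 was higher by 0.85 ± 0.23 (SE; edgeR adjusted p = 0.0269), from 134, 141 and 136 CPM to 223, 199.5 and 312 CPM, and the spindle motor KIF11 by 0.81 ± 0.23 (SE; edgeR adjusted p = 0.0326), from 156, 148 and 118 CPM to 190.0, 269 and 278 CPM. In all 7 the lines did not overlap, which adds little, since the 7 were called on these same libraries. The share of all genes without overlap between the lines was not counted. CCNB1 (0.20), CDK1 (0.38), PLK1 (-0.03), CDC20 (-0.01), TOP2A (0.18), MKI67 (1.04) and FOXM1 (0.34) were not called. In +Met, AURKA was counted at 141, 142 and 149 CPM in R1 against 92.6, 83.6 and 84.1 CPM in HEK293T. On these column sums its log2 fold change was 0.73, where the median of all genes was 0.37. With TMM scaling the log2 fold change of AURKA in +Met was 0.38 and was not called (edgeR adjusted p = 0.185). It was 0.61 with GC and length trends removed (edgeR adjusted p = 0.00555).

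Without R1 -Met+Hcy replicate 3, edgeR called 8 members higher in R1 in -Met+Hcy (CENPE, HMMR, AURKA, ESPL1, ANLN, KIF11, CDC25B and BUB1), against 15.7% of all genes, and TTK lower, by 1.02, against 14.6%. HMMR was then at 1.01, ANLN at 0.68, BUB1 at 0.52, CENPE at 1.12, KIF11 at 0.61, and KIF20B, at 0.57 (edgeR adjusted p = 0.0589), was no longer called. With GC and length trends removed, 17 members were called higher, against 15.4% of all genes, and 2 lower (TTK and KIF4A), against 12.6%. Leaving out HEK293T -Met+Hcy replicate 2 or 3 left 1 of the 7 called, AURKA, and leaving out replicate 1 of that group left 3 (CENPE, ANLN and AURKA). HMMR had an edgeR adjusted p between 0.0632 and 0.0759 without these libraries. KIF20B was also lost without any 1 of the HEK293T +Met libraries or R1 +Met replicate 1 or 3 (edgeR adjusted p 0.0514 to 0.0618), and KIF11 without HEK293T +Met replicate 1 (0.0515), R1 +Met replicate 1 (0.0524) or R1 -Met+Hcy replicate 2 (0.0654). AURKA kept its call without any 1 of the 12 libraries, but not when the compared groups were fitted alone.

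Other genes of the pathway, in 7 lists with 188 genes, were read beside the members in HEK293T. In the kinetochore list 3 of 37 genes fell, CENPW by 1.15, CENPH by 1.02 and ZWINT by 0.57, and 0 rose. Among 29 further spindle, kinesin and cytokinesis genes 2 rose, the spindle protein CKAP2L by 1.19 and the centriole protein POC1A by 0.73, and 0 fell, with a median of 0.10 (TROAP, the next by p, had -0.79 and was not called). The list of brakes on mitotic entry had 2 of 13 genes higher and 0 lower. They were GADD45A (1.41) and GADD45B (1.41), stress-induced genes whose products restrain CDK1, with edgeR adjusted p of 0.00235 and 0.0347, and the checkpoint kinase CHEK2 followed at -0.64 (0.0886). With all libraries GADD45A was the 1 gene of the 188 called for a difference between the lines' responses (-1.76, R1 minus HEK293T, edgeR adjusted p = 0.046). Of all genes 0.0583% were called lower there. Without R1 -Met+Hcy replicate 3, this difference held 2 brake genes lower, and in the spindle list 1 higher and 1 lower. The shares of all genes were then 1.28% lower and 0.398% higher. Of 21 cell cycle transcription factors and DREAM or MMB subunits, NFYA, a subunit of the CCAAT-binding factor, rose by 0.72, E2F5 fell by 1.28, and RB1, at -0.98, was not called. The 17 genes of the anaphase promoting complex and the 21 of condensin and cohesin held 0 calls by edgeR, with medians of -0.15 and 0.02. In DNA replication and S phase, 3 of 50 genes fell, among them the fork protein TIMELESS by 1.12 and the ribonucleotide reductase subunit RRM2 by 0.85, and DTL, a substrate receptor of a ubiquitin ligase, rose by 1.30, with a median of -0.32. Without R1 -Met+Hcy replicate 3, when 12.5% of all genes were called lower and 15.2% higher against 2.78% and 4.25% with it, these counts grew to 8 lower and 3 higher for the kinetochore, 4 and 5 for the spindle list, 3 and 1 for the anaphase promoting complex, 3 and 1 for condensin and cohesin, 2 and 4 for the brakes, 6 and 4 for the transcription factors and 13 and 5 for S phase.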

How the data were processed

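RNA from HEK293T and R1 cells (12 libraries, 3 in each of 4 groups) was quantified by the authors with kallisto v0.48.0 against GRCh38. The deposited values are estimated counts that the authors summed per gene and converted to integers. edgeR v4.0.16 (R v4.3.3) was used here on all 12 libraries with TMM scaling, a mean for each group and a summed count of at least 10 (17162 genes), with Benjamini-Hochberg adjustment over all of them and a threshold of 0.05. The model had 8 residual degrees of freedom. DESeq2 v1.42.0 and other scalings, filters and sets of libraries were alternatives. Intervals are 95%. GC content and length of the canonical GENCODE transcript were assigned to 15857 genes tested (92.4%), and the trend was removed through loess offsets (span 0.3). Scripts were tested on simulated data. The members and lists were chosen with earlier results of these data known. Described by value were the 5 called members with the largest changes in each direction, the 3 highest and 3 lowest where fewer than 3 were called, CCNB1, CDK1, PLK1, AURKA, CDC20, TOP2A, MKI67 and FOXM1, and for other lists the 3 genes with the smallest p; other members were named after their values were seen. Replicates differed by more than sampling noise.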

Additional observations from a re-analysis of the deposited data

How the results depend on the processing

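Counts of members called moved most with the libraries that shared the estimate of the spread and with library trends. In HEK293T, 2 members were lower and 0 higher. The values were 4 lower with DESeq2, 1 lower and 1 higher on column sums, 1 lower with an absolute log2 fold change over 1, 16 lower and 2 higher with HEK293T alone, 13 lower and 1 higher with the GC and length trend removed, 17 lower and 1 higher with R1 -Met+Hcy replicate 3 left out as well, and 21 lower and 3 higher with HEK293T alone and the trend removed. Leaving out each library gave 0 to 12 lower and 0 to 1 higher. Over all genes the calls rose too, from 477 lower and 730 higher of 17162 to 1584 and 1658 with the trend removed. They were 3102 lower and 3250 higher of 17069 with the library left out as well. On column sums 213 of all genes were called lower and 1794 higher. For HEK293T alone and for a fold over 1 no count over all genes is given here. Of R1 against HEK293T in +Met, 0 were called in either direction, and the alternatives gave 1 higher and 4 lower (DESeq2), 9 higher (column sums), 4 higher and 5 lower (these groups alone), 8 higher and 2 lower (trend removed), 15 higher and 6 lower (that and the library left out) and 0 to 6 in each direction with single libraries left out. Over all genes, 976 higher and 769 lower became 1746 and 1622 (trend removed). With the library left out as well they became 3285 and 3203. On column sums they were 2251 higher and 357 lower. For these groups alone no count over all genes is given here. In -Met+Hcy, 7 higher and 0 lower became 0 higher (these groups alone), 4 (fold over 1), 17 higher and 2 lower (trend removed), 19 higher and 2 lower (that and the library left out), and 1 to 10 higher and 0 to 1 lower with single libraries left out. All genes there went from 1235 higher and 1160 lower to 2641 and 2155 (trend removed). With the library left out as well they reached 3224 and 3123. No count over all genes is given here for these groups alone or for a fold over 1. For the difference of the responses, 0 became 1 higher (trend removed) and 5 higher (that and the library left out), while over all genes 0 higher became 127 and 712. In R1, 0 members were called under every alternative run.

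Medians moved with the scaling, and so did those of all genes. In HEK293T the median was -0.18, 0.11 on column sums, -0.24 with the trend removed and -0.24 with HEK293T alone and the trend removed, and it lay between -0.28 and -0.18 with single libraries left out. The median difference became 0.0051 on column sums. It lay 0.42 above that of all genes with TMM scaling and 0.38 above it on column sums. For R1 against HEK293T in +Met 0.04 became 0.38 on column sums, 0.15 with the trend removed, 0.14 with the library left out as well, and 0.021 to 0.12 with single libraries left out. The median of all genes there went from 0.02 to 0.37 on column sums. The members' median lay 0.02 above it with TMM scaling and 0.01 above it on column sums. Summed levels were 6853 CPM (HEK293T +Met), 6915 CPM (HEK293T -Met+Hcy) and 8346 CPM (R1 +Met) on column sums, and 8090, 6659 and 7718 CPM with TMM library sizes, which turned the order of the media in HEK293T and of the lines in +Met. The TMM factors, by which the library sizes are multiplied, ran from 0.828 to 0.882 in HEK293T +Met. They ran from 0.993 to 1.086 in HEK293T -Met+Hcy and from 1.049 to 1.103 in R1 +Met. Why the factors differ was not tested.

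Single genes near zero changed sign. PLK1 in HEK293T was 0.23 on column sums and -0.12 to 0.0050 with single libraries left out, and CENPF -0.0019 to 0.66. In R1, CDK1 was -0.16 with the trend removed, -0.075 with the library left out as well and -0.11 to 0.63 with single libraries left out, AURKA -0.085, -0.11 and -0.090 to 0.16, CCNB1 -0.23 to 0.23, FOXM1 -0.070 to 0.19, and PLK1 0.14 with the trend removed. In the difference, PLK1 was 0.17 and FOXM1 0.22 with the trend removed, and MKI67 -0.12 on column sums and -0.14 to 0.62 with single libraries left out. For R1 against HEK293T in +Met, CDK1 was 0.022 with the trend removed and 0.020 with the library left out as well, and CDC20 0.034 on column sums. In -Met+Hcy, CDC20 was 0.039 on column sums, 0.25 with the trend removed, 0.19 with the library left out as well and -0.16 to 0.22 with single libraries left out, PLK1 0.27 with the trend removed and -0.14 to 0.053, and TOP2A -0.035 to 0.30.

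The labels do not say whether same-numbered libraries were handled together, and correlations among 3 libraries a group cannot settle it. Same-numbered libraries of the 2 media deviated together with r of 0.00, -0.07 and 0.48 in HEK293T and 0.07, -0.47 and -0.09 in R1, and 1 of 3 and 0 of 3 correlated best with their own number. With a replicate block, 1 member was lower in HEK293T (PTTG1) and 3 were higher in R1 in -Met+Hcy. The shares of all genes under that fit are not given here, so these counts cannot be set against them.

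Where a group was left with 2 libraries, the fit took the spread from all groups. With 3 libraries a group and a common dispersion of 0.109, small differences were not detectable, and the R1 direction in particular was set by 1 library. RNA level was measured, not protein or cell cycle phase.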

Other observations

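Levels per length differed widely between members. In HEK293T +Met, CKS2 had the highest level per kb of transcript (552 ± 125 CPM per kb, SD, n = 3), followed by CCNB1 (259 ± 29.0), CDC20 (187 ± 10.6) and PTTG1 (170.1 ± 3.68), and CENPE had the lowest (8.24 ± 2.73). In HEK293T -Met+Hcy CKS2 (252 ± 63.2) and CCNB1 (203 ± 33.0) were still first, within their spread of each other, while CDC20 (126 ± 5.95) stood at rank 5 and PTTG1 (97.0 ± 12.4) at rank 9 of the 43.

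Within a group, the highest library of a member exceeded the lowest by a median of 1.23-fold in HEK293T +Met, 1.24-fold in HEK293T -Met+Hcy, 1.48-fold in R1 +Met and 1.68-fold in R1 -Met+Hcy. The widest cases were CENPE (1.83-fold), CENPF (2.56-fold), MKI67 (3.38-fold) and ESPL1 (4.35-fold), in that order of groups. R1 -Met+Hcy replicate 3 was the highest of its 3 libraries for 26 members and the lowest for 13.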
